A study of Vitis labrusca and Vitis cinerea and Vitis acerifolia with 56 samples.

Results

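Stilbene synthases were followed in developing grape berries through 2 runs of neighbouring gene identifiers. The larger run, VIT_16s0100g00750 to VIT_16s0100g01200, held 39 rows of the deposited expression table, and the smaller, VIT_10s0042g00840 to VIT_10s0042g00930, held 10. These 49 rows of 29971 were chosen by identifier alone and not by their levels. The identifiers begin with the numbers of chromosomes 16 and 10. The deposited table gives no gene names or positions, so the family name rests on the identifier ranges.

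Stilbene synthase joins 4-coumaroyl-CoA with malonyl-CoA to make resveratrol, the parent of the grapevine stilbenes. Chalcone synthase takes the same substrates into the flavonoids and anthocyanins. Stilbenes are known in grapevine as antimicrobial compounds that rise after infection, wounding or ultraviolet light, and in some cultivars as berries ripen. The grapevine genes lie in tandem arrays of near copies, so reads may have been shared out wrongly between neighbouring rows, and a value for a single row is less certain than a sum over rows.

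The study asked how sunlight exclusion affects anthocyanin accumulation in berries of 3 grapes. It holds 56 RNA-seq libraries of berries, 24 labelled V. labrusca (written La, a hybrid of V. labrusca with V. vinifera according to the labels), 22 labelled V. cinerea (Ci, a native American species) and 10 labelled V. acerifolia (Ac, a wild species). Berries were taken at the young berry stage (YB, La and Ci alone), 2 weeks before veraison (PV), at veraison (V), when colour begins, 2 weeks after veraison (2V) and at maturity (M). Clusters stayed in sunlight (C) or were enclosed in foil-covered boxes until pre-veraison (R1), until veraison (R2) or throughout development (R3), while young berries carry no light treatment (N). A library is written by species, stage and treatment, so that Ci_2V_R1 is V. cinerea taken 2 weeks after veraison from clusters boxed until pre-veraison. PV_R1, V_R2 and M_R3 berries were therefore still boxed at harvest, and the other R1 and R2 berries had been re-exposed. The 35 groups hold 2 libraries in 21 cases and 1 library in 14, among them all 10 V. acerifolia groups. The labels do not say whether replicate libraries came from separate vines, so p-values measure the spread between libraries, which may be technical.

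The values were FPKM, fragments scaled by gene length and by the mapped fragments of the library, and the number of reads behind them is unknown. Total FPKM per library ran from 764972 to 1882690. An exact 0 in this table can be a failed estimate, since 38 of the 1309 rows with a median of at least 100 FPKM were listed at 0 in at least 1 library. Levels are therefore given library by library. The row recalled as UFGT, which glucosylates anthocyanidins, lay between 0 and 5.93 FPKM before veraison and between 33.0 and 1342 FPKM at maturity over the 3 labels. The row recalled as GIN1, a vacuolar invertase of unripe berries, lay between 326 and 1794 FPKM before veraison and between 0.802 and 584 at maturity, with an overlap, and reached 717 in 1 V. cinerea library at 2V. Rows whose lowest log2 level in 1 species up to veraison exceeded the highest in the other species by 1 or more (22 for La, 13 for Ci and 271 for Ac, 0 of them stilbene synthase rows) did not match the label in 9 later libraries, a row counting as held when it lay above the midpoint between the species. La_M_C replicate 2 and La_M_R1 replicate 2 held 46.2% and 69.2% of the Ci rows, and Ci_M_C replicate 1 held 77.3% of the La rows. Ac_M_C, Ac_M_R1 and Ac_M_R2 held 100.0%, 76.9% and 84.6% of the Ci rows. Ci_2V_R1 replicates 1 and 2 and Ci_2V_R2 replicate 2 held 19.9%, 22.9% and 21.0% of the Ac rows beside 7.69% of the Ci rows, where Ac_M_R3 held 21.4% and 7.69%, and correlated across genes with Ac_M_R3 at r = 0.963, 0.952 and 0.965, computed without the stilbene synthase rows. All of them, Ac_M_R3 included, also held 13.6% of the La rows, while Ac_2V_R2 held 82.7% of the Ac rows. The species of Ac_M_R3 is therefore uncertain as well, although it is not among the 9. The 4 V. cinerea libraries with a high stilbene synthase sum that are not among the 9 held 23.1% to 38.5% of the Ci rows, at most 4.55% of the La rows and at most 4.06% of the Ac rows, so their species rests on few rows. Results below are given under the labels and, where they rest on the 9 libraries, also without them. Separately, the labels of La_V_C replicate 2 and La_V_R2 replicate 2 conflict on the stage, and La_YB_N, La_V_C and La_2V_R1 replicates 1 list 14509, 12537 and 11880 rows above 0, against 16683 or more elsewhere.

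Stilbene synthase transcripts were scarce in most libraries and abundant in a few. The FPKM summed over the 49 rows had a median of 5.48 over the 56 libraries and a highest value of 1798, and 10 libraries reached 100. All 10 were taken after veraison. Up to veraison the sum lay between 0 and 62.7 in 25 libraries, with a median of 4.53, and after veraison between 0 and 1798 in 31 libraries, with a median of 16.5. The 3 libraries with a sum of 0 were the 3 with fewest rows above 0. In bulk berries, fewer cells of a type and less RNA per cell cannot be told apart.

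In libraries labelled V. labrusca, the sum was 0 and under 0.001 FPKM in young berries, 0.437 and 0.324 in PV_C, 0.437 and 4.26 in PV_R1, 0 and 0.917 in V_C, and 1.95 and 5.07 in V_R2. These libraries all stayed close to the floor. At 2V it was 1.78 and 0.224 in sunlight, 0 and 4.14 in R1, and 4.89 and 287 in R2. At maturity it was 14.6 and 53.0 in sunlight, 2.04 and 49.05 in R1, 3.11 and 42.7 in R2, and 492 and 2.74 in berries that never saw sunlight. The values of 53.0 and 49.05 belong to La_M_C replicate 2 and La_M_R1 replicate 2, whose species is uncertain. These libraries hold 46.2% and 69.2% of the Ci rows beside 4.55% and 0% of the La rows. Without them, sunlight stood at 14.6 and R1 at 2.04. A single library of each of La_2V_R2 and La_M_R3 was high, and the other replicate of the same group lay among the low ones.

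In libraries labelled V. cinerea, the sum was 20.7 and 4.91 FPKM in young berries, 6.73 in PV_C, 3.98 and 3.12 in PV_R1, 4.53 and 5.29 in V_C, 22.7 and 3.75 in V_R1, and 14.7 in V_R2. At 2V it was 205 and 3.75 in sunlight, 533 and 1798 in R1, and 420.3 in R2. The 3 re-exposed values here belong to the libraries that resemble Ac_M_R3 and hold 19.9% to 22.9% of the Ac rows, so their species is uncertain. At maturity it was 36.7 and 60.7 in sunlight, 172 in R1, 105 and 334 in R2, and 4.54 and 5.68 in R3. The 3 light groups of mature V. cinerea did not overlap: never exposed berries were lowest, sunlight berries intermediate and re-exposed berries highest, and the order was the same without Ci_M_C replicate 1, which holds La rows.

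In libraries labelled V. acerifolia, each group being 1 library, the sum was 6.06 FPKM in PV_C and 58.1 in PV_R1. At veraison it was 9.90 in sunlight, 16.3 in re-exposed R1 berries and 62.7 in boxed R2 berries. In both stages the boxed library was the higher one. Ac_2V_R2 stood at 16.5. At maturity it was 1.86 in sunlight, 6.57 in R1 and 2.16 in R2, all 3 of which hold Ci rows, and 729 in R3, whose species is uncertain.

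**Figure D1:**
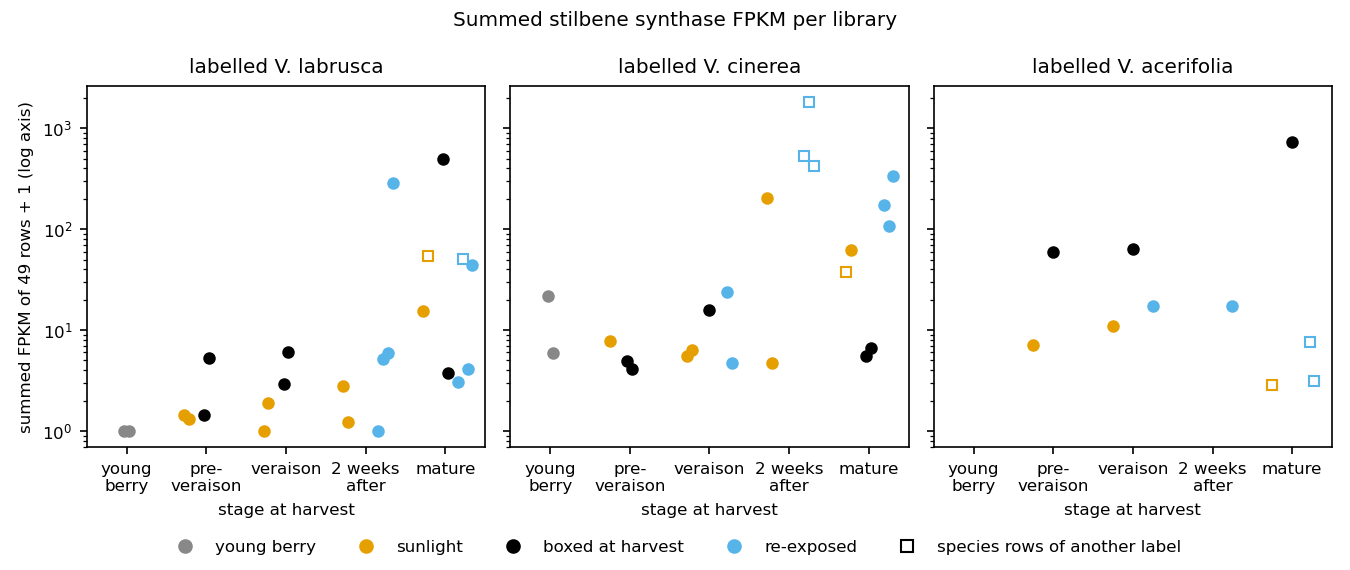
FPKM summed over the 49 stilbene synthase rows, plus 1, on a log axis, by stage and labelled species. Each point is 1 library, and colour gives the light status at harvest. Open squares mark the 9 libraries that hold a larger share of the species rows of another label than of their own. In Ci_2V_R1 and Ci_2V_R2 that share is at most 22.9%. High values, up to 1798, occur after veraison, and replicates of 1 group can lie far apart (492 and 2.74 in La_M_R3).

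Of the 49 rows, 43 were above 0 in at least 1 library, 41 reached 1 FPKM in at least 2 libraries, and 6 were listed at 0 in all 56 (4 on chromosome 16 and 2 on chromosome 10). The level was spread over many copies. FPKM is scaled by gene length, so levels can be set beside each other between rows, within the limits of near copies. The 6 leading rows of the chromosome 16 run had means over the 56 libraries of 14.4 FPKM (VIT_16s0100g01200), 8.48 (VIT_16s0100g01030), 7.67 (VIT_16s0100g00780), 6.84 (VIT_16s0100g01150), 6.48 (VIT_16s0100g01100) and 5.22 (VIT_16s0100g00750). Together they held 48.6% of all stilbene synthase FPKM. The highest value of each of the 6 was in Ci_2V_R1 replicate 2, up to 261 FPKM for VIT_16s0100g01200.

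VIT_16s0100g01100 was the most widespread copy. It was above 0 in 51 of 56 libraries and at 1 FPKM or more in 41, against 24 for VIT_16s0100g01200 and 21 for VIT_16s0100g01150, the next most widespread. It was the highest row in 27 libraries and VIT_16s0100g01200 in 10. Its share of the sum had a median of 46.03% in libraries taken up to veraison and 7.26% after veraison. By label these medians were 30.0% and 10.9% in V. labrusca, 47.0% and 4.46% in V. cinerea, and 60.1% and 67.2% in V. acerifolia. The median fell in the first 2 labels and not in the third. The last value rests on libraries that hold Ci rows, Ac_M_C (73.2%), Ac_M_R1 (67.2%) and Ac_M_R2 (88.1%). Without these, Ac_2V_R2 stood at 57.1% and Ac_M_R3 at 5.37%, both under the V. acerifolia median up to veraison. A low sum did not always mean a high share of this copy, which was listed at 0 in La_PV_C replicate 1 and La_M_R1 replicate 1, with sums of 0.437 and 2.04 FPKM. The number of rows at 1 FPKM or more was at most 11 up to veraison and reached 39 in La_M_R3 replicate 1 and in Ci_2V_R1 replicate 2.

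**Figure D2:**
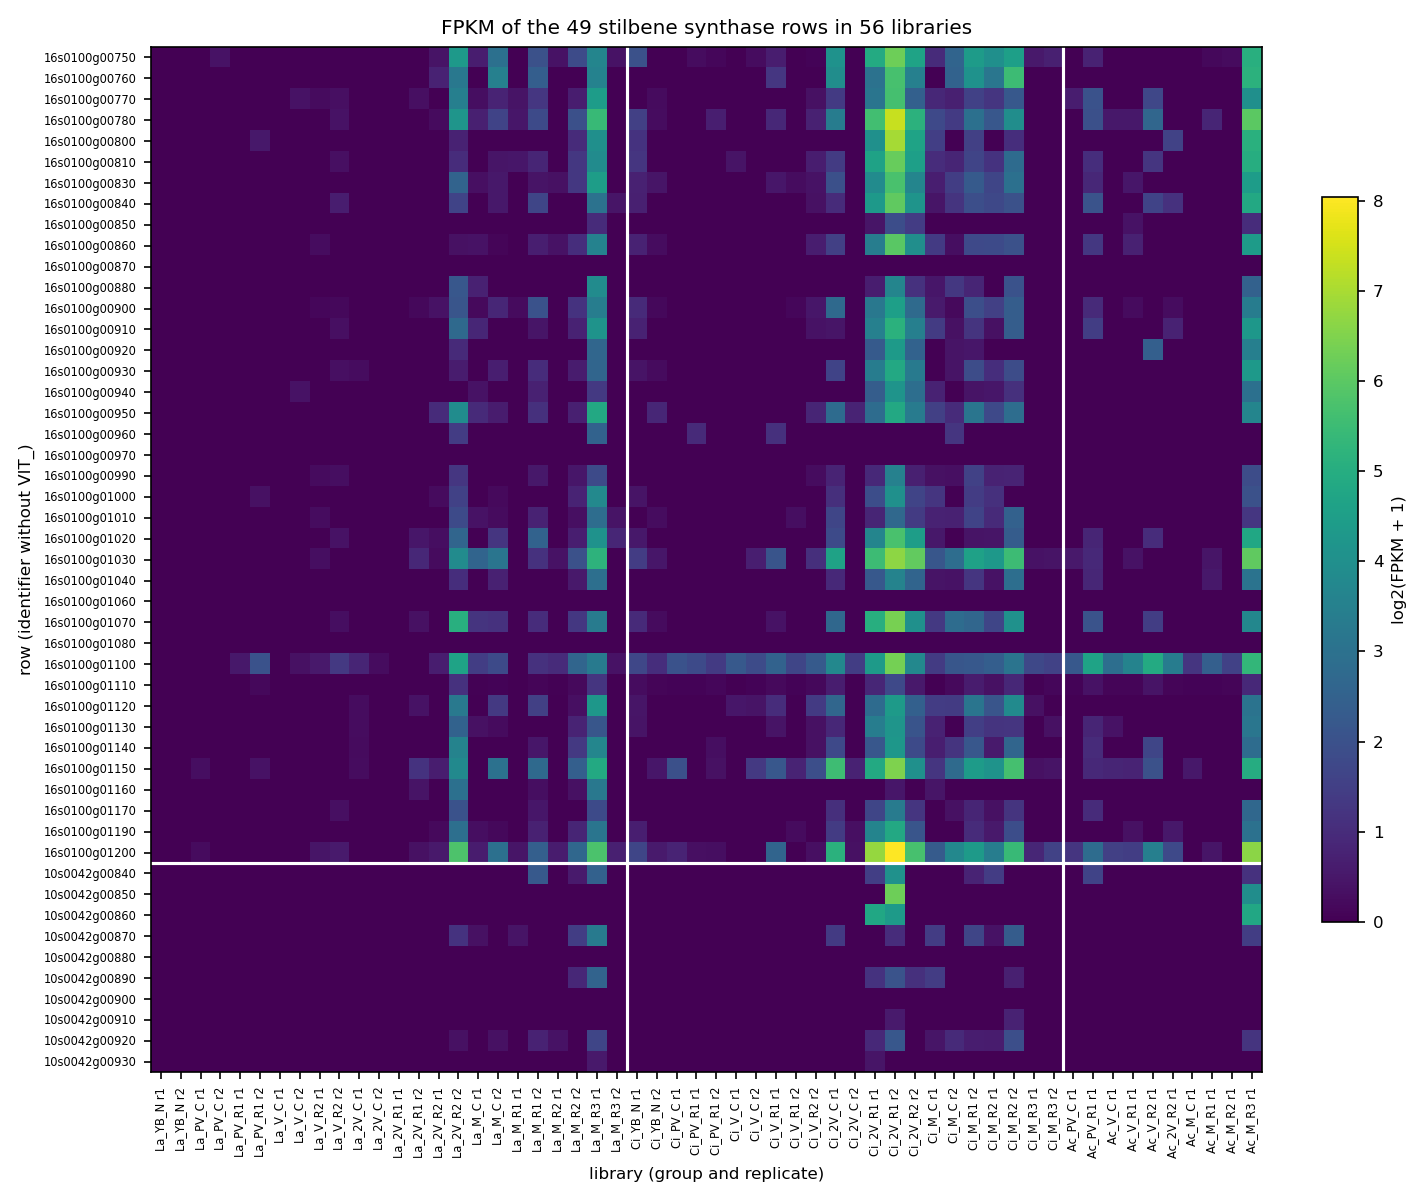
log2(FPKM + 1) of each of the 49 rows (vertical) in each of the 56 libraries (horizontal, grouped by labelled species and ordered by stage and treatment), with the 10s0042 rows below the horizontal white line. VIT_16s0100g01100 is visible in most libraries, while the other copies appear together in the few libraries with a high sum.

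The chromosome 10 run was a minor part of the sum. Its 10 rows added up to more than 0 in 19 libraries, of which Ac_PV_R1, at 2.04 FPKM, was the single one taken up to veraison. The highest sum was 120.1 FPKM in Ci_2V_R1 replicate 2, followed by 45.5 in Ac_M_R3, 30.7 in Ci_2V_R1 replicate 1 and 21.2 in La_M_R3 replicate 1. In the 10 libraries with a total of 100 or more it gave between 0.271% and 6.68% of the stilbene synthase FPKM. VIT_10s0042g00850 stood at 76.5 FPKM in Ci_2V_R1 replicate 2 and 14.3 in Ac_M_R3 and was listed at 0 in the other 54. VIT_10s0042g00860 stood at 26.4 and 19.8 FPKM in Ci_2V_R1 replicates 1 and 2 and at 26.9 in Ac_M_R3 and was listed at 0 in the other 53. Of the 3 V. cinerea libraries that resemble Ac_M_R3, the first lists the g00850 row at 0 and Ci_2V_R2 replicate 2 lists both rows at 0.

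The copies that made up a high sum differed between these libraries. VIT_16s0100g01150 gave 22.3% of the sum in Ci_2V_C replicate 1, 11.7% in Ci_M_R1 replicate 2, and 15.6% and 14.9% in Ci_M_R2 replicates 1 and 2. It gave 5.36%, 4.91% and 3.66% in Ci_2V_R1 replicates 1 and 2 and Ci_2V_R2 replicate 2, 4.17% in Ac_M_R3, and 4.54% and 5.85% in La_2V_R2 replicate 2 and La_M_R3 replicate 1. The 4 V. cinerea libraries outside the 9 were the high ones for this copy, with no overlap. VIT_16s0100g00780 was low in those 4, at 3.4% to 4.53%, and stood at 8.35% to 9.06% in Ac_M_R3 and the 3 libraries that resemble it. The 2 high V. labrusca libraries gave 5.96% (La_2V_R2 replicate 2) and 8.505% (La_M_R3 replicate 1) for this row, so that the second lay among the last 4. VIT_16s0100g00800 gave 2.90% to 6.76% in these last 4 libraries, 3.06% in La_M_R3 replicate 1, 0.250% in La_2V_R2 replicate 2 and at most 1.07% in the 4 V. cinerea libraries. VIT_16s0100g01160 gave 2.38% and 1.70% in the 2 high V. labrusca libraries, at 6.83 and 8.37 FPKM, and at most 0.0225% in the other 8. These shares are a description with no test, and how far near copies of different grapes were mapped to different rows was not tested.

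**Figure D3:**
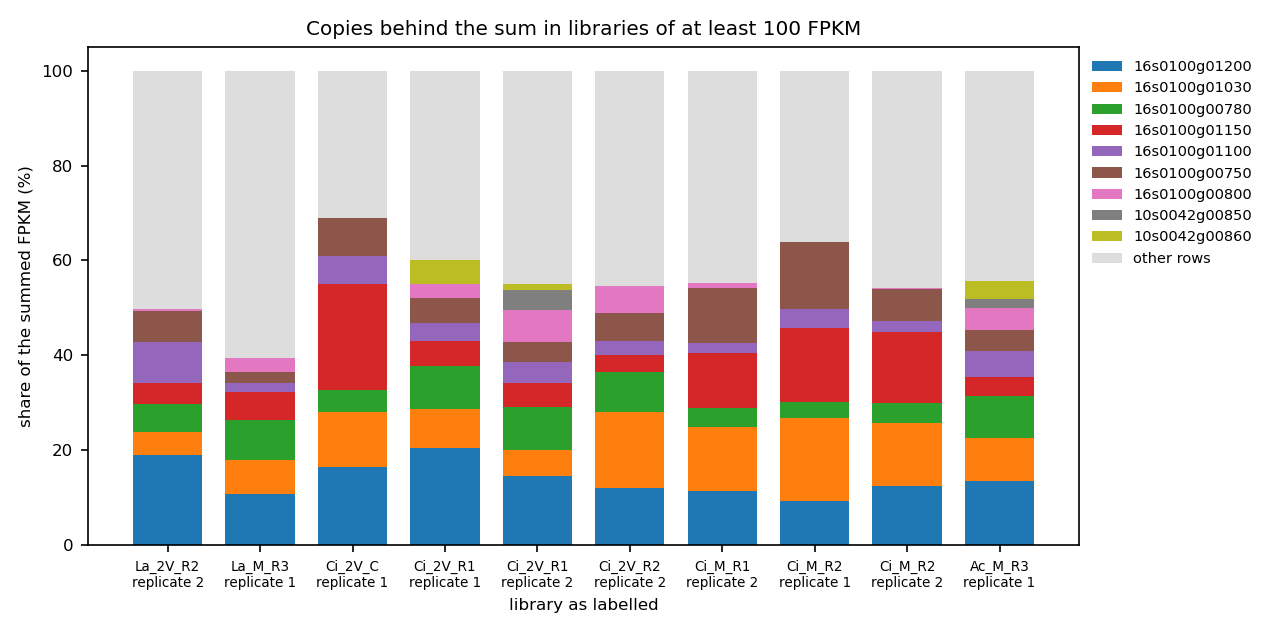
Share of the summed stilbene synthase FPKM (percent, vertical) held by the 9 rows named in the key and by all other rows, in the 10 libraries with a sum of at least 100 FPKM (horizontal, as labelled). VIT_16s0100g01150 takes 22.3% in Ci_2V_C replicate 1 and 4.17% in Ac_M_R3, and the rows of chromosome 10 shown appear in Ci_2V_R1 and Ac_M_R3.

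Up to veraison, the 2 copies VIT_16s0100g01100 and VIT_16s0100g01200 were higher in V. acerifolia than in either of the other grapes. VIT_16s0100g01100 was lower in V. labrusca than in V. cinerea. The grapes differed in ripening rows at veraison. There the UFGT row lay at 20.2 to 531 FPKM in V. labrusca, 5.32 to 341 in V. cinerea and 3.32 to 9.29 in V. acerifolia. The GIN1 row lay at 8.64 to 165, 741 to 2298 and 1604 to 1891 FPKM. Species and ripening state were therefore not separated in these comparisons. The 25 libraries taken up to veraison were compared in limma within the same stage and treatment, on log2(FPKM + 1), a scale that understates differences of low genes. Filtering on at least 1 FPKM in at least 2 libraries left 10 of the 49 rows, all of the chromosome 16 run, so that the counts describe those 10 and not the family. For rows that passed through 1 species alone, the filter itself favours a difference between species, so calls among them are no separate evidence. VIT_16s0100g00770, VIT_16s0100g00840 and VIT_16s0100g01070 reached 1 FPKM in 2 libraries, both boxed V. acerifolia. VIT_16s0100g01030 and VIT_16s0100g01120 did so in V. cinerea alone and were called in none of the species comparisons.

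VIT_16s0100g01100 was listed in the 10 V. labrusca libraries at 0 to 3.09 FPKM with a median of 0.138, in the 10 V. cinerea libraries at 1.08 to 4.72 with a median of 2.55, and in the 5 V. acerifolia libraries at 3.64, 24.3, 6.42, 11.1 and 28.9 (PV_C, PV_R1, V_C, V_R1 and V_R2). The ranges of neighbouring species overlapped, and those of V. labrusca and V. acerifolia did not. VIT_16s0100g01200 reached 0.504 FPKM in V. labrusca, 4.98 in V. cinerea and 9.98 in V. acerifolia, where its lowest value was 1.36. V. acerifolia lay above V. labrusca in every library here, and overlapped with V. cinerea.

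Between V. acerifolia and V. labrusca, 7 of the 10 tested rows were higher in V. acerifolia and 0 lower, where 57.1% of all 19936 tested genes differed and 46.8% were higher. Of the 7, 3 had passed the filter through V. acerifolia alone, and the other 4 were among 5 rows that reached 1 FPKM in more than 1 species. VIT_16s0100g01100 differed by 3.04 ± 0.34 (SE) and VIT_16s0100g01200 by 1.97 ± 0.39 on the log2 scale, with limma adjusted p = 3e-07 and 0.000203. The other 5 were VIT_16s0100g00780, VIT_16s0100g00770, VIT_16s0100g00840, VIT_16s0100g01070 and VIT_16s0100g00810, with differences of 0.53 to 1.18. VIT_16s0100g00840, VIT_16s0100g01070 and VIT_16s0100g00810 were above 0 in V. acerifolia in Ac_PV_R1, at 3.20, 3.18 and 1.06 FPKM, and in Ac_V_R2, at 2.07, 1.75 and 1.37, and were listed at 0 in the other 3 libraries. Without Ac_PV_R1 or without Ac_V_R2, the 2 boxed libraries with high sums, the count was 3.

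Between V. acerifolia and V. cinerea, 5 of 10 rows were higher in V. acerifolia and 0 lower, where 46.7% of all tested genes differed and 35.6% were higher. Of the 5, VIT_16s0100g00770 and VIT_16s0100g00840 had passed the filter through V. acerifolia alone, which leaves 3 of 5 rows. VIT_16s0100g01100 differed by 1.69 ± 0.34 (limma adjusted p = 0.000353), VIT_16s0100g01200 by 1.45 ± 0.38 (0.00366), VIT_16s0100g00770 by 0.79 (0.00759), VIT_16s0100g00840 by 0.63 (0.0420) and VIT_16s0100g00780 by 0.76 (0.0428). Without Ac_PV_R1 or without Ac_V_R2, the count was 2, and it was 3 without any 1 of 6 V. cinerea libraries. Between V. labrusca and V. cinerea, 2 of 10 rows were lower in V. labrusca and 0 higher, where 38.6% of all tested genes differed and 28.2% were lower. VIT_16s0100g01100 differed by -1.35 ± 0.28 (limma adjusted p = 0.000836) and VIT_16s0100g01150 by -0.82 ± 0.29 (0.0284). The second call was lost without Ci_PV_C replicate 1, Ci_V_C replicate 2, Ci_V_R2 replicate 2 or either La_V_R2 library. The median over the 10 rows was 0.76, 0.61 and -0.40 in these 3 comparisons, beside 0.59, 0.36 and -0.24 over all tested genes. Scaling by median ratios moved the median of all genes by -0.41, -0.32 and 0.09, and left 6, 3 and 2 rows called, in the same directions. The 3 comparisons share libraries, and 7, 5 and 2 of 10 filtered rows set beside 46.8%, 35.6% and 28.2% of all genes in the same direction give no result about the family as a whole.

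**Figure D4:**
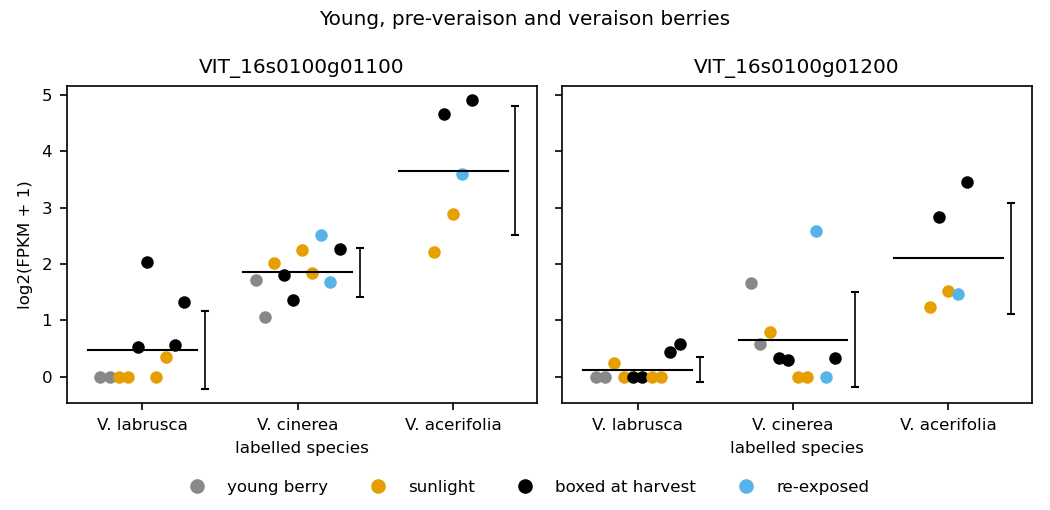
log2(FPKM + 1) of the 2 rows VIT_16s0100g01100 and VIT_16s0100g01200 in young, pre-veraison and veraison berries of 10 V. labrusca, 10 V. cinerea and 5 V. acerifolia libraries. Points are libraries coloured by light status, lines are means and bars the SD, and the 2 highest V. acerifolia points in each panel are the boxed libraries.

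In the same comparisons, of 3 rows recalled as chalcone synthase, 1 was higher in V. acerifolia than in V. cinerea and 0 differed in the other 2 species comparisons. Of 4 rows recalled as 4-coumarate-CoA ligase, which makes the shared substrate, 3 were higher in V. acerifolia than in V. labrusca and 2 higher than in V. cinerea. For phenylalanine ammonia-lyase 1 of 3 tested rows, and for cinnamate hydroxylase 1 of 2, was higher in V. acerifolia than in V. labrusca. Between V. labrusca and V. cinerea, 1 ligase row and 1 cinnamate hydroxylase row were lower in V. labrusca. Beside 46.8%, 35.6% and 28.2% of all genes in the same directions, these few rows give no result about the pathway. The row recalled as MYB14, an activator of stilbene synthase genes, passed in none of the 3 comparisons. These names were recalled and not checked against an annotation.

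Light status was compared within species and stage in 51 libraries, where 41 of the 49 rows passed the filter (35 on chromosome 16 and 6 on chromosome 10). In V. acerifolia, 1 of 41 rows was higher in boxed than in sunlight berries and 0 lower, where 0.844% of all 20252 tested genes differed and 0.262% were higher. It was VIT_16s0100g00840, at 3.20, 2.07 and 28.1 FPKM in the boxed libraries Ac_PV_R1, Ac_V_R2 and Ac_M_R3 and listed at 0 in the sunlight libraries Ac_PV_C, Ac_V_C and Ac_M_C. The boxed libraries were the high ones at all 3 stages, and the difference was 2.85 ± 0.73 (limma adjusted p = 0.0487). The median over the 41 rows was 1.44, beside -0.03 over all genes, and 18 rows had an unadjusted p under 0.05, all higher, beside 12.4% of all genes. Without the 9 libraries that do not match their label, 0 rows passed, the median was 0.34 and 3 rows had an unadjusted p under 0.05. Without Ac_M_R3 these were 0, 0.27 and 2. The call of VIT_16s0100g00840 was lost in 13 of 15 alternatives, at adjusted p of 0.0355 to 0.477, and among the 6 single libraries of the comparison it held without Ac_V_R2 alone. Without Ac_PV_R1 or without Ac_PV_C the 1 row that passed was another, VIT_16s0100g00920. The boxed and re-exposed comparisons of a species share their sunlight libraries.

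At maturity Ac_M_R3, whose species is uncertain, is set against Ac_M_C, which holds Ci rows. The earlier boxed libraries were also the high ones of their stages. VIT_16s0100g01100 was at 24.3 FPKM in Ac_PV_R1 against 3.64 in Ac_PV_C, and at 28.9 in Ac_V_R2 against 6.42 in Ac_V_C. Re-exposed Ac_V_R1, at 11.1 FPKM, lay between them. Over all stages this row differed by 2.85 ± 0.84 between boxed and sunlight berries and did not pass (limma adjusted p = 0.0923). With 1 library a group, neither stage has a replicate check.

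In V. cinerea and V. labrusca, no row passed in limma for boxed against sunlight berries, where 0.36% and 6.31% of all genes differed. In either species 0 of 41 rows had an unadjusted p under 0.05. The medians over the rows were 0.01 and 0.55, beside 0.10 and 0.12 over all genes, and without La_M_R3 replicate 1 the V. labrusca median was -0.02. The difference in response between V. acerifolia and V. cinerea gave 0 called rows in limma and 10 at an unadjusted p under 0.05, all higher in V. acerifolia, where 0.499% of all genes differed and 16.9% had such a p. Without Ac_M_R3, 0 rows had an unadjusted p under 0.05. That between V. labrusca and V. cinerea gave 0 called rows and 0 at an unadjusted p under 0.05, where 0% of all genes differed.

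In re-exposed against sunlight berries, 0 of 41 rows passed in limma in each species, where 0.0198% of all genes differed in V. cinerea, 0% in V. labrusca and 0.0395% in V. acerifolia. In V. cinerea 33 rows had an unadjusted p under 0.05, all higher after re-exposure, beside 11.4% of all genes. The median over the rows there was 1.23, beside -0.03 over all genes. VIT_16s0100g00840 came closest, at 18.9, 66.1 and 17.0 FPKM in the re-exposed 2V libraries against 0.993 and 0 in Ci_2V_C, and at 2.85, 2.35 and 3.02 in re-exposed mature berries against 0.366 and 1.31 in Ci_M_C. All re-exposed values lay above the sunlight values of their stage, and the difference was 1.92 ± 0.48 (limma adjusted p = 0.140). At veraison, by contrast, it was listed at 0 in both light groups of V. cinerea. Without the 9 libraries that do not match their label, the median was 0.55 and 0 rows had an unadjusted p under 0.05. In V. labrusca and V. acerifolia 0 rows had an unadjusted p under 0.05, and the medians were 0.01 and -0.29. The fit gives boxed and re-exposed berries 1 effect each over all stages. The V. acerifolia median therefore does not give the direction within a stage. Its summed FPKM was higher in the re-exposed libraries, at 16.3 against 9.90 in sunlight at veraison. At maturity it was 6.57 and 2.16 against 1.86, in libraries that hold Ci rows.

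Chalcone synthase rows and a part of the rows of the shared enzymes were lower in boxed than in sunlight berries of V. labrusca. Between boxed and sunlight berries, 2 of 11 tested rows recalled as phenylalanine ammonia-lyase, which opens the phenylpropanoid pathway, 1 of 3 as cinnamate hydroxylase, 1 of 4 as 4-coumarate-CoA ligase and 3 of 3 as chalcone synthase were lower in boxed berries, and none was higher, where 6.31% of all genes differed. These counts were the same without the 9 libraries, of 10 rather than 11 phenylalanine ammonia-lyase rows tested. With all libraries, the shared rows that passed differed by -3.34 to -1.59, and the chalcone synthase rows by -2.62 to -2.27. Most phenylalanine ammonia-lyase rows that did not pass were listed at or near 0 in most V. labrusca libraries, so the counts say little about them. The row recalled as MYB15, another regulator of stilbene synthase genes, was lower too, by -2.15 ± 0.40 (limma adjusted p = 0.00146; -1.99 ± 0.42 and 0.00548 without the 9 libraries), while the MYB14 row did not pass. The stilbene synthase rows, with 0 of 41 passing, had positive differences in 39 rows, and none had an unadjusted p under 0.05. The median over all genes was positive too, at 0.12, and the share of all genes with a positive difference was not computed. Without La_M_R3 replicate 1 the median over the stilbene synthase rows was slightly negative, as given above, so their direction rests on that library.

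**Figure D5:**
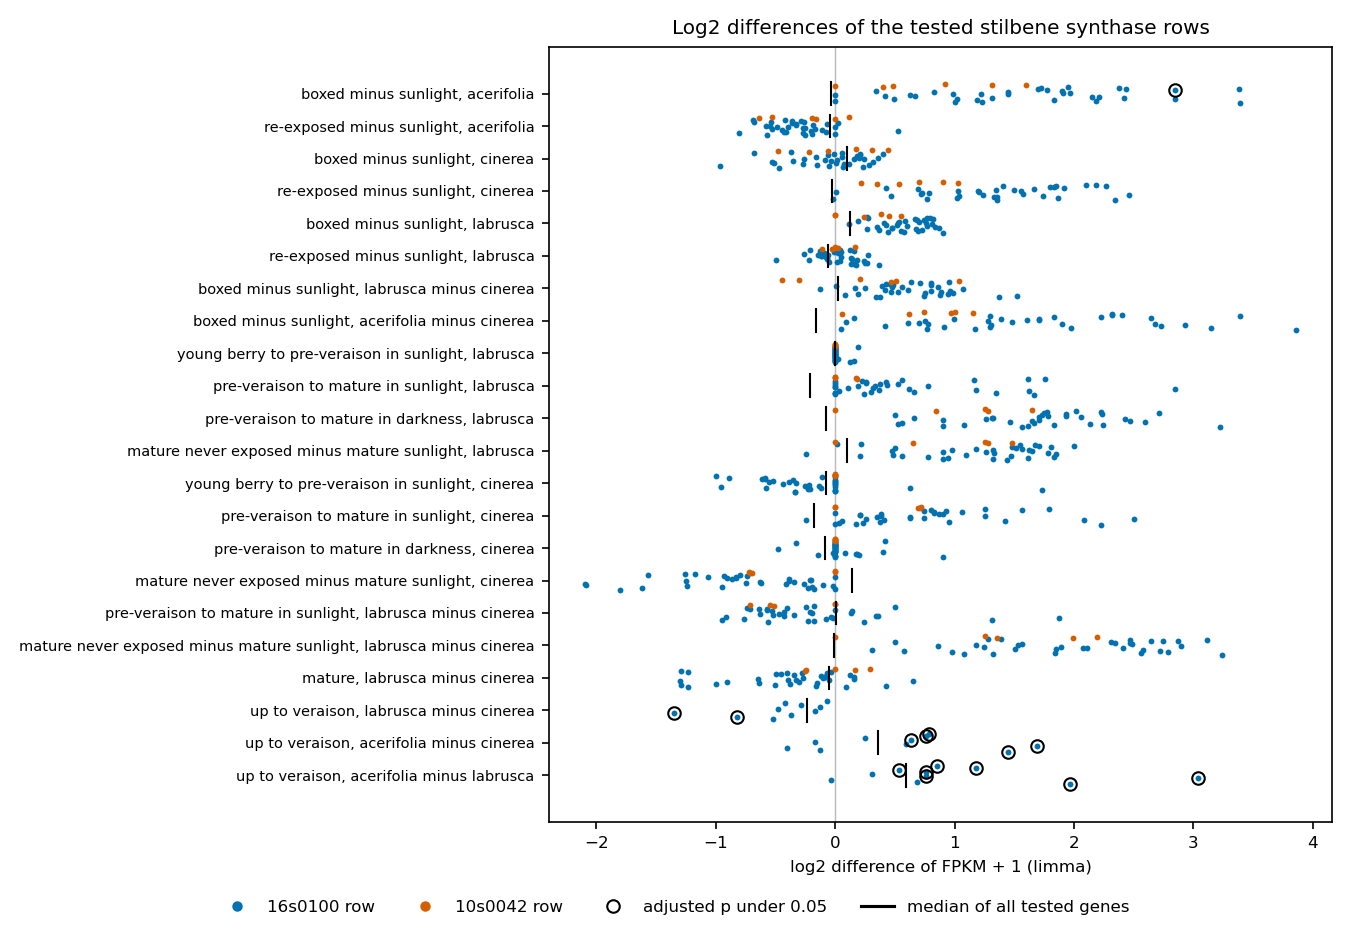
log2 differences of FPKM + 1 from limma for each tested stilbene synthase row (points, coloured by run) in the 22 comparisons (vertical), with rows at an adjusted p under 0.05 circled and the median of all tested genes as a black tick. Circled rows lie in the comparisons up to veraison and in boxed against sunlight berries of V. acerifolia.

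Across ripening, stage and maturity contrasts were taken from 1 fit of the 46 V. labrusca and V. cinerea libraries, in which 40 of the 49 rows passed the filter. No row passed in limma from young berry to pre-veraison in sunlight, where 7.02% of all genes changed in V. labrusca and 12.6% in V. cinerea, and none had an unadjusted p under 0.05. From pre-veraison to maturity in sunlight no row passed, where 19.2% of all genes changed in V. labrusca and 18.6% in V. cinerea, with 1 and 0 rows at an unadjusted p under 0.05. VIT_16s0100g01030 came closest in both, at 0 and 0 FPKM in La_PV_C against 4.96 and 7.63 in La_M_C, and at 0 in Ci_PV_C against 3.39 and 6.30 in Ci_M_C. Mature berries were the higher ones, by 2.84 ± 1.26 in V. labrusca and 2.50 ± 1.54 in V. cinerea (limma adjusted p = 0.119 and 0.287). The medians over the rows were 0.28 and 0.70, beside -0.21 and -0.17 over all genes, which scaling by median ratios moved by 0.18 and 0.17. Without the 9 libraries, which include La_M_C replicate 2 and Ci_M_C replicate 1, 0 rows passed and 0 had an unadjusted p under 0.05 in either species, with medians of 0.11 and 0.56, where 12% and 17.2% of all genes changed. The difference between the species gave 0 called rows in limma and 0 at an unadjusted p under 0.05, where 1.5% of all genes differed.

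In the same ripening interval a part of the enzyme rows passed in V. labrusca and 1 in V. cinerea. In V. labrusca in sunlight, 2 of 9 tested rows recalled as phenylalanine ammonia-lyase, 1 of 3 as cinnamate hydroxylase, 2 of 4 as 4-coumarate-CoA ligase and 2 of 3 as chalcone synthase rose and none fell, where 19.2% of all genes changed. In V. cinerea, 1 of 9 phenylalanine ammonia-lyase rows rose and 0 of 3, 0 of 4 and 0 of 3 of the others passed, where 18.6% of all genes changed. With the 9 libraries left out, these counts were 2 of 8, 1 of 3, 1 of 4 and 3 of 3 in V. labrusca and 1 of 8, 1 of 3, 0 of 4 and 0 of 3 in V. cinerea, all of them rises. The MYB15 row rose by 5.38 ± 0.63 in V. labrusca and 4.11 ± 0.77 in V. cinerea (limma adjusted p = 3.47e-06 and 0.00065), and by 4.93 ± 0.77 and 4.24 ± 0.89 without the 9 libraries (0.000325 and 0.00335).

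In darkness, from PV_R1 to M_R3, no stilbene synthase row passed in limma in V. labrusca, where 2.4% of all genes changed, and 24 rows had an unadjusted p under 0.05, all higher at maturity, beside 13.5% of all genes. The median over the rows was 1.69, beside -0.07 over all genes. In V. cinerea 0 rows passed and 0 had an unadjusted p under 0.05, where 5.37% of all genes changed, and the median was 0. The V. labrusca values rested on which La_M_R3 library was taken. Without replicate 1 the median was 0 and 0 rows passed, and without replicate 2 it was 3.32 and 27 rows passed, where 0.897% and 2.46% of all genes changed, the second a fit in which the lone library is assumed to vary like the other groups.

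Mature berries that never saw sunlight were compared with mature sunlight berries of the same grape. In V. labrusca 0 of 40 rows passed in limma, where 4.42% of all genes differed, and 12 had an unadjusted p under 0.05, all higher in the never exposed berries, beside 19.6% of all genes. VIT_16s0100g01200 was at 52.6 and 0.632 FPKM in La_M_R3 against 0.513 and 6.89 in La_M_C, and VIT_16s0100g01150 at 28.7 and 0 against 0 and 7.02. The groups overlapped for both rows. Both La_M_R3 libraries carry V. labrusca rows. The median over the rows was 1.30, beside 0.10 over all genes. It was -0.24 with 0 rows passing without La_M_R3 replicate 1, and 2.71 with 20 rows passing without replicate 2, where 1.86% and 2.05% of all genes differed. The median was 1.37 without the 9 libraries, which include La_M_C replicate 2, with 0 rows passing and 5 at an unadjusted p under 0.05, where 2.0% of all genes differed.

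In V. cinerea 0 of 40 rows passed in limma and 0 had an unadjusted p under 0.05, where 10% of all genes differed. None of the rows had a positive difference and 36 had a negative one, with a median of -0.72, beside 0.14 over all genes, which scaling moved by -0.14. VIT_16s0100g01070 came closest, at 0 and 0 FPKM in Ci_M_R3 against 1.54 and 6.12 in Ci_M_C, and VIT_16s0100g01030 stood at 0.301 and 0.347 against 3.39 and 6.30. The never exposed libraries were the low ones for both, at differences of -2.09 ± 1.10 and -2.10 ± 1.26 (limma adjusted p = 0.254 and 0.335). Without the 9 libraries that do not match their label, the median was -0.60. The difference in response between the 2 grapes gave 0 called rows in limma and 14 at an unadjusted p under 0.05, all higher in V. labrusca, where 1.29% of all genes differed and 14.9% had such a p. Without La_M_R3 replicate 1 that number was 0, and without replicate 2, 16 rows passed, where 0.98% of all genes did. With the 9 libraries left out, 0 rows passed and 6 had an unadjusted p under 0.05.

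Over the 4 mature treatments together, 0 of 40 rows passed in limma between V. labrusca and V. cinerea, where 6.37% of all genes differed, and 1 row, VIT_16s0100g00750, had an unadjusted p under 0.05, lower in V. labrusca by -1.29 ± 0.61. Without the 9 libraries that do not match their label, 2 rows passed, VIT_16s0100g00750 and VIT_16s0100g00760, both lower in V. labrusca, where 26.9% of all genes differed.

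Replicates of 1 group disagreed on stilbene synthases by more than on other genes in some late groups. The median absolute log2 difference between the 2 replicates was 3.25 over the rows and 0.35 over all genes in La_M_R3, 1.91 and 0.31 in La_2V_R2, 1.62 and 0.29 in Ci_2V_R1, 1.22 and 0.63 in Ci_2V_C and 1.11 and 0.41 in Ci_M_R2. In La_M_R3, where the stilbene synthase sum was 492 and 2.74 FPKM, most upstream enzyme rows were also higher in replicate 1, in 11 of 12 rows recalled as phenylalanine ammonia-lyase, 3 of 3 as cinnamate hydroxylase and 3 of 4 as 4-coumarate-CoA ligase. Their summed FPKM was 114 and 35.2, 179 and 25.6, and 148 and 110.2. The 3 chalcone synthase rows summed to 352 and 470.4, with replicate 2 the higher one, although 2 of the 3 rows were higher in replicate 1. Elsewhere the library with the higher stilbene synthase sum held more chalcone synthase FPKM in La_2V_R2 (4022 against 2902) and Ci_2V_R1 (7225.5 against 5399). In both pairs, however, 2 of the 3 rows were lower in that library. The library with the higher stilbene synthase sum also held more in Ci_M_R2 (2767 against 1618, 3 of 3 rows higher). It held less in Ci_2V_C (5746 against 7277, 3 of 3 rows lower). Its upstream sums were lower for cinnamate hydroxylase in Ci_2V_C, phenylalanine ammonia-lyase in Ci_M_R2 and 4-coumarate-CoA ligase in La_2V_R2 and Ci_M_R2, and otherwise higher. The MYB15 row stood at 20.2 and 2.90 FPKM in La_M_R3, and replicate 1 was the higher one. It was also higher in the library with the higher stilbene synthase sum in La_2V_R2 (47.1 against 27.2) and Ci_2V_R1 (95.8 against 80.9). The same held in Ci_2V_C (94.4 against 30.7) and Ci_M_R2 (108 against 90.4). The part of the MYB15 row in the sums was not tested. The MYB14 row was at 3.63 and 0.302 FPKM in La_M_R3, at 0.917 and 9.40 in La_2V_R2, at 7.35 and 0 in Ci_2V_C and at 6.65 and 16.9 in Ci_2V_R1. In these 4 pairs the library with more stilbene synthase FPKM was also the one with more MYB14 FPKM. The pairs were chosen after their values were seen, and the part of this row in the sums was not tested. In Ci_M_R2, at 10.7 and 4.23 FPKM against sums of 105 and 334, it was not. The MYB14 row passed in none of the 22 comparisons.

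Outside the family, the rows whose level ran closest to the stilbene synthase sum over the 56 libraries were VIT_12s0059g01380 and VIT_05s0077g01530, with Spearman's rho of 0.861 and 0.844 among 14678 rows ranked. The files do not pair these identifiers with names. The libraries share species, stage and the few high ones, so the values are a description.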

How the data were processed

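Berry RNA from 56 samples was sequenced on Illumina libraries, and the authors deposited 1 table of FPKM values per gene and library. The values were made with TopHat2 2.0.14 and Cufflinks 2.2.1, per the submitters' processing notes, and the genome build and annotation are not given in the sources used here. Read depth is unknown, so no counting interval can be given, and the number of libraries limits the precision.

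The stilbene synthase rows, the gene lists and the tests were chosen with earlier results of these data known. Names of enzymes, regulators and UFGT were recalled, not checked against an annotation. No sequences were used here. Named rows were the 6 leading rows of chromosome 16 and the 2 of chromosome 10 by mean FPKM, and in each comparison the rows with an adjusted p under 0.05, at most 8. Rows named as closest to passing, the copies named for their shares and the replicate pairs were chosen after their values were seen.

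Values were analysed as log2(FPKM + 1) in limma 3.58.1 (R 4.3.3) with a trended empirical Bayes prior and Benjamini-Hochberg adjustment over all genes at 1 FPKM or more in at least 2 libraries of the fit. Light status was fitted with species by stage as covariate in 51 libraries and 20252 genes, stages with 1 coefficient per group in 46 libraries and 20333 genes, and species up to veraison with stage by treatment as covariate in 25 libraries and 19936 genes. The fits were tested on simulated data. The 3 contrasts of response between species, and the differences in summed FPKM at maturity, were added after seeing the data. Sums were made in Python 3.11.15 and have no test. Alternatives were a pseudocount of 0.1, no filter, median-ratio scaling, a replicate block, a fit of each species alone, and leaving out single libraries, the 9 libraries that do not match their label (these also together with Ac_M_R3, added after seeing the data), the sparse libraries, or those with conflicting stage labels.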

Additional observations from a re-analysis of the deposited data

Results flagged for a closer look

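Ac_2V_R2, the one V. acerifolia library taken 2 weeks after veraison, entered no comparison, since no sunlight library of that stage and grape was there to set beside it. Its summed stilbene synthase FPKM of 16.5 lay above the sunlight libraries Ac_PV_C and Ac_V_C, at 6.06 and 9.90. Ac_M_C was lower too, at 1.86, but holds Ci rows. In Ac_2V_R2, VIT_16s0100g01100 gave 9.39 FPKM of the 16.5.

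The summed FPKM of mature never exposed berries minus that of mature sunlight berries was 727 in V. acerifolia and -43.6 in V. cinerea. The 2 grapes moved in opposite directions in every library, and the difference between the grapes was not tested for the sum. The V. acerifolia value sets 1 library against 1. The species of Ac_M_R3 is uncertain, and the sunlight library of that pair holds V. cinerea rows. The part of that library in the difference was not tested.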

How the results depend on the processing

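The single V. acerifolia row higher in boxed berries became 0 with a pseudocount of 0.1, median-ratio scaling, the replicate block, the species fitted alone, or without the 9 libraries that do not match their label (with or without Ac_M_R3 as well), the sparse libraries or those with conflicting stage labels. With a pseudocount of 0.1, 1 row rose from pre-veraison to maturity in V. labrusca sunlight berries, and 3 rather than 5 rows were higher up to veraison in V. acerifolia than in V. cinerea, as after scaling. With the replicate block that count was 2, with VIT_16s0100g01200 no longer passing (limma adjusted p = 0.0627), and V. labrusca against V. cinerea up to veraison gave 1 rather than 2, as it did without the libraries with conflicting stage labels. Mature V. labrusca against V. cinerea gave 2 without the 9 libraries, with or without Ac_M_R3. The cause was not tested.

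Leaving out 1 library at a time gave 0 to 1 for boxed V. acerifolia (0 without Ac_M_R3, Ac_M_C or Ac_V_C, and a different row without Ac_PV_R1 or Ac_PV_C), 0 to 1 for re-exposed V. cinerea (1 without Ci_V_R1 replicate 2), 0 to 27 for V. labrusca ripening in darkness, 0 to 20 for its never exposed against sunlight berries and 0 to 16 for that response against V. cinerea (27, 20 and 16 without La_M_R3 replicate 2, and 1 in the last without Ci_M_C replicate 2). It gave 0 to 1 for mature V. labrusca against V. cinerea (1 without La_M_R3 replicate 1). Up to veraison it gave 1 to 3 for V. labrusca against V. cinerea, with 1 without Ci_V_C replicate 2, Ci_V_R2 replicate 2 or either La_V_R2 library, 2 to 6 for V. acerifolia against V. cinerea, with 3 without Ci_PV_C replicate 1, either Ci_PV_R1 library, Ci_V_C replicate 1, Ci_V_R2 replicate 2 or Ci_YB_N replicate 2 and 2 without Ac_PV_R1 or Ac_V_R2, and 3 to 8 for V. acerifolia against V. labrusca, with 3 without Ac_PV_R1 or Ac_V_R2. The summed FPKM difference of never exposed minus sunlight V. labrusca berries was 213, with a range of -31.1 to 458, and that of VIT_16s0100g01200 in limma ran from -1.08 (adjusted p = 0.856) to 3.96, the lowest without La_M_R3 replicate 1 and the highest without replicate 2. Of 403 recomputed counts of called rows, 320 belonged to comparisons with 0 called rows, of which 311 gave 0 again and 9 gave more. Of the other 83, 53 stayed within 1.5 times and 30 fell. Deviations of same-numbered libraries correlated at -0.22 to 0.73 (median 0.02, 6 of 66 pairs of groups over 0.1) in V. labrusca. In V. cinerea they correlated at -0.11 to 0.43 (median 0.07, 14 of 36). The correlation was low in most pairs of groups, which does not settle whether replicate numbers pair the libraries. Apart from the counts given above for the replicate block, the block moved no count by over 1.5 times. Depth is unknown, and low FPKM values and exact zeros limit what a single row can show.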
